A study of Saccharomyces cerevisiae with 33 samples.

Results

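The genes described here encode factors that build ribosomes in the nucleolus and nucleus of Saccharomyces cerevisiae. They were chosen by name, as all genes whose symbol is UTP, NOP or RRP followed by a number, together with DBP2, NSR1, MRT4 and DIP2. This rule found 57 genes among the 5449 S. cerevisiae genes measured, each with 1 probe set. All 57 had a mean above the array background in each group, and only NOP8, RRP36, UTP4 and UTP25 had single arrays below it, in C-limited ino4Δ.

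In the nucleolus, RNA polymerase I makes a long precursor RNA that is folded, modified and cut into the rRNAs of both ribosomal subunits. The UTP proteins belong to the small subunit processome, a large particle that assembles on the front part of this precursor and prepares the 40S subunit, while box C/D and H/ACA snoRNPs guide the chemical modification of the RNA and other factors lead the 60S subunit towards export. The exosome, a ring of inactive subunits with attached nucleases, trims the rRNA ends and also degrades many other RNAs. Genes of ribosome assembly are known in yeast to be transcribed together, at a high rate during fast growth and a low one during stress.

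By role, the members were 6 proteins of UtpA (the subcomplex that binds the precursor first), 5 of UtpB, 2 of UtpC, 3 core proteins of box C/D snoRNPs and 1 of H/ACA snoRNPs. A further 16 act in 40S assembly and 15 in 60S assembly, 7 are exosome subunits, and RRP12 and DBP2 were kept apart because Rrp12 helps export both subunits and the RNA helicase Dbp2 also acts on mRNA. Beside them stand 85 other ribosome assembly genes named differently, such as PWP2 and NAN1, which are the UTP1 and UTP17 proteins under other names. Another list held 122 genes of cytosolic ribosomal proteins.

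The study compared yeast strains with different activity of the Ino2-Ino4 activator pair, which turns on genes of phospholipid synthesis and is held back by the repressor Opi1. Affymetrix Yeast Genome 2.0 arrays measured RNA from steady-state chemostat cultures, in which growth is limited by the carbon source (C-limited, 18 arrays) or by nitrogen (N-limited, 15 arrays), with 3 arrays in each of 11 groups. The groups were opi1Δ, ino2Δino4Δ, ino4Δ, ino2Δ and the reference strain under N-limitation, and the same strains under C-limitation, where opi1Δ made up a pair of groups, one sampled when CO2 production was at its maximum and one at its minimum. The reference was the prototrophic strain CEN.PK 113-7D, from which each deletion strain was derived, and the medium of all cultures contained inositol and choline.

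Each deletion was represented by 1 strain, and the C-limited opi1Δ samples are time points of cultures with oscillating CO2 production, so that phase and strain enter together when they are set against the steady reference. The labels do not say that the arrays of a group came from separate cultures, and p-values measure the spread between these arrays only. RNA of a whole culture was measured, in which less RNA per cell and fewer cells expressing a gene cannot be told apart. All values below are signals on a log2 scale, so that a difference of 1 is a change of 2-fold, and levels were compared only between arrays of the same gene. A member is said to have risen or fallen where limma, a linear model fitted to all 33 arrays, gave an adjusted p below 0.01 after Benjamini-Hochberg correction over the 5449 genes.

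The arrays agree closely within most groups, with exceptions that bear on the values below. Median signals over all genes ran from 7.14 to 7.44, and the lowest was opi1Δ at minimum CO2, replicate 2. In 5 arrays HAC1, which encodes the activator of the unfolded protein response, read between 6.31 and 7.04, against 9.0 to 10.64 in the other 28. They are opi1Δ at minimum CO2 replicates 1 and 3, the N-limited reference replicate 1 and N-limited ino2Δino4Δ replicates 1 and 3. OPI1 was low on all 9 opi1Δ arrays. Under C-limitation 4 arrays carried levels of INO2 and INO4 that fit another label, namely ino2Δ replicates 2 and 3 (INO4 at 5.08 and 5.06, against 6.53 in replicate 1), ino4Δ replicate 3 (INO2 at 5.19, against 6.34 and 6.18) and ino2Δino4Δ replicate 1 (INO4 at 6.64, against 5.09 and 5.15). Over all genes, the array labelled ino4Δ replicate 3 differed from those labelled ino2Δino4Δ replicates 2 and 3 by a median of 0.07 (absolute log2 difference) and from ino4Δ replicates 1 and 2 by 0.26. The arrays labelled ino2Δ replicate 1 and ino2Δino4Δ replicate 1 differed by 0.073. The former differed from its own replicates 2 and 3 by 0.148 and 0.145, the latter from its own by 0.120 and 0.133. Between ino2Δ replicate 2 and ino2Δino4Δ replicates 2 and 3 the values were 0.134 and 0.152. Groups were kept as labelled, the names of C-limited INO deletions below stand for the arrays so labelled, and results of the members that rest on these arrays are given with and without them.

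Seen across the whole experiment, the 57 genes spanned a much wider range under C-limitation than under N-limitation. The median over the members was 8.46, 8.50 and 8.37 in C-limited opi1Δ at maximum CO2 and 7.78, 6.52 and 7.78 at minimum CO2. In C-limited ino2Δino4Δ it was 7.46, 7.35 and 7.28, in ino4Δ 6.40, 6.43 and 7.33, in ino2Δ 7.54, 7.46 and 7.45, and in the C-limited reference 7.51, 7.49 and 7.66. The maximum CO2 arrays stood above all others, and 3 arrays stood far below: ino4Δ replicates 1 and 2 and opi1Δ at minimum CO2 replicate 2.

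Under N-limitation the member median stayed within a narrow band. It was 7.29, 7.22 and 7.35 in opi1Δ, 7.52, 7.45 and 7.57 in ino2Δino4Δ, 7.22, 7.33 and 7.29 in ino4Δ, 7.30, 7.32 and 7.34 in ino2Δ and 7.37, 7.36 and 7.27 in the reference. The ino2Δino4Δ arrays were the highest of these. The median over all 5449 genes moved little by comparison, with group means from 7.33 to 7.38 under either limitation apart from opi1Δ at minimum CO2 (7.27).

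**Figure D1:**
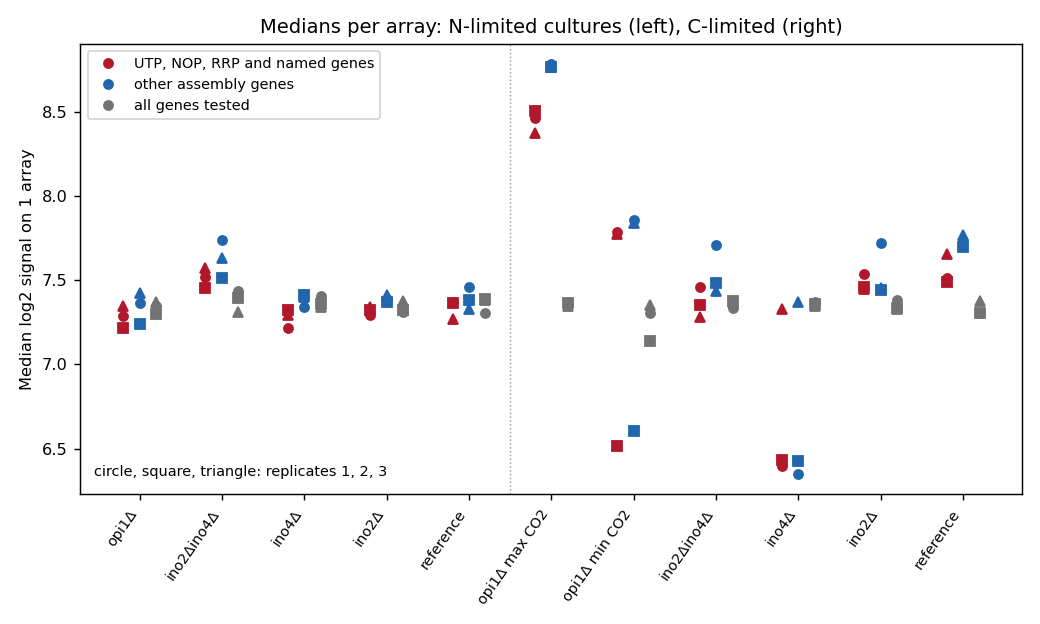
Median log2 signal on each array (vertical axis) of the 57 members (red), the 85 other assembly genes (blue) and all 5449 genes (grey), with N-limited groups on the left and C-limited groups on the right; circles, squares and triangles are replicates 1, 2 and 3. Members and other assembly genes move together, highest in opi1Δ at maximum CO2 and lowest on opi1Δ at minimum CO2 replicate 2 and ino4Δ replicates 1 and 2, while the grey points stay near 7.3.

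Of the 57 members, 56 had their highest group mean in opi1Δ at maximum CO2, the exception being NOP19, and 51 had their lowest in C-limited ino4Δ. The distance between the highest and lowest group mean had a median of 1.75. The widest ranges belonged to DBP2 (3.62), NSR1 (3.53) and MRT4 (2.91), and the narrowest to NOP19 (0.69) and the exosome genes RRP45 (0.75) and RRP6 (0.83). All 7 exosome subunits lay between 0.75 and 1.03. DBP2 is also a gene with duties beyond the ribosome, and it varied most.

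**Figure D2:**
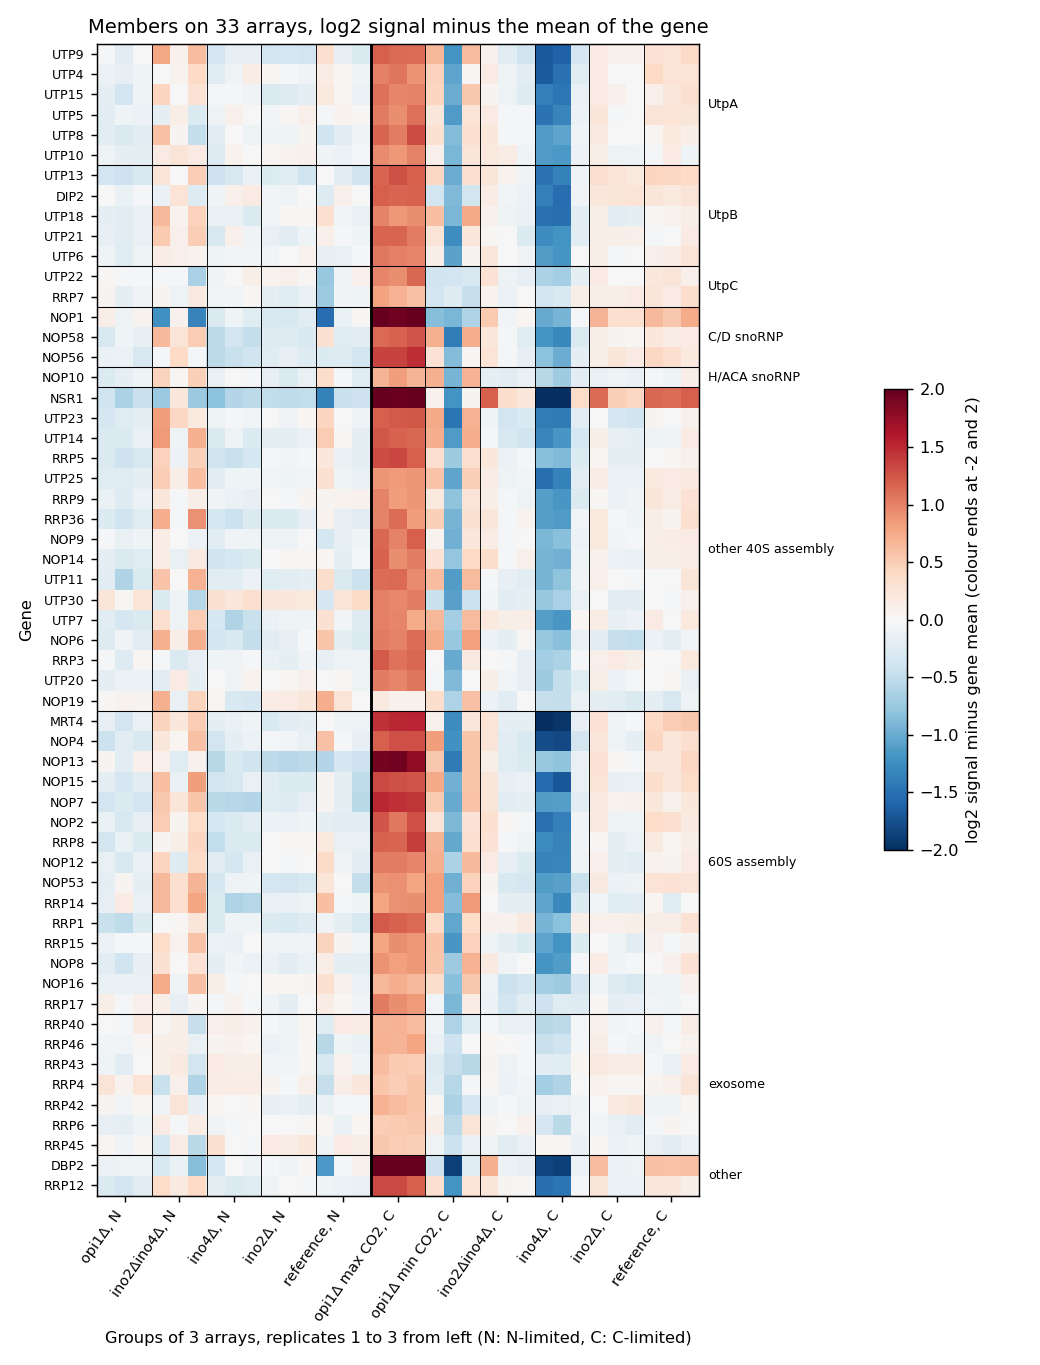
Log2 signal of each member (rows, ordered by role) on each of the 33 arrays (columns, groups of 3 with replicates 1 to 3 from the left), as the difference from the mean of the gene over all arrays; red is above and blue below the mean, and colours end at -2 and 2. The red block is opi1Δ at maximum CO2, and the blue columns are opi1Δ at minimum CO2 replicate 2 and C-limited ino4Δ replicates 1 and 2; exosome genes are paler in both.

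Of the comparisons made, the CO2 phases of opi1Δ had the most members that rose or fell. At maximum against minimum CO2 production 46 of the 57 members rose and 0 fell, with a median log2 fold change of 1.16, in a comparison where 28.4% of all genes rose and 17.0% fell and the median of all genes was 0.10. The arrays of both phases did not overlap for 53 members, all higher at maximum CO2, as for 38.1% of all genes in that direction. On these 6 arrays alone limma called 15 members higher, where 13.7% of all genes were, and the methods' t-test, with the same adjustment, called 5, where 6.86% of all genes were, so that the share of members called by that test was near that of all genes. Of the 85 other assembly genes 70 rose and 0 fell, among them RLP24 (2.26 ± 0.28, SE), TIF6 (2.20 ± 0.45), DBP3 (2.06 ± 0.30) and CIC1 (1.88 ± 0.32), all of 60S assembly.

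DBP2 (YNL112W, chromosome XIV) had the largest rise. It read 9.98, 9.84 and 9.97 at maximum CO2, against 7.17, 5.72 and 7.34 at minimum CO2. Every maximum array was above every minimum array, and minimum replicate 2 stood far below the other two. The log2 fold change was 3.19 ± 0.39 (SE, limma, adjusted p = 2.5e-07), or 9.1-fold.

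NOP1 (YDL014W, chromosome IV), the methyltransferase of box C/D snoRNPs known as fibrillarin in animals, came next. Its signals were 10.74, 10.63 and 10.67 at maximum CO2, against 7.82, 7.77 and 8.07 at minimum CO2. Here all minimum replicates were low, with no gap at replicate 2. The log2 fold change was 2.79 ± 0.32 (SE, limma, adjusted p = 7.65e-08), or 6.93-fold. Its partners NOP56 and NOP58, which hold the snoRNP together, rose by 1.58 ± 0.20 and 1.18 ± 0.33 (limma, adjusted p = 3.36e-07 and 0.00386).

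NSR1 (YGR159C, chromosome VII), the yeast relative of nucleolin and a factor of 18S rRNA processing, read 10.35, 10.19 and 10.47 at maximum CO2, against 8.30, 7.03 and 8.27 at minimum CO2. The groups were apart by nearly 2 units, and minimum replicate 2 was the lowest array. The log2 fold change was 2.47 ± 0.46 (SE, limma, adjusted p = 7.4e-05). NOP13, an RNA-binding protein of the nucleolus found with early 60S particles, read 9.16, 9.18 and 9.03 at maximum CO2, against 7.79, 5.83 and 7.81 at minimum CO2, a rise of 1.98 ± 0.30 (SE, limma, adjusted p = 4.26e-06) with no overlap.

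MRT4 (YKL009W, chromosome XI), whose product holds the place of the ribosomal stalk protein P0 on 60S precursors, had signals of 9.78, 9.85 and 9.86 at maximum CO2 and 8.42, 7.08 and 8.57 at minimum CO2. DIP2 (YLR129W, chromosome XII), the UtpB subunit also called Utp12, had 8.35, 8.32 and 8.34 at maximum CO2 and 6.78, 6.28 and 6.78 at minimum CO2. In both genes the phases were separate and minimum replicate 2 was lowest. They rose by 1.80 ± 0.33 and 1.72 ± 0.22 (SE, limma, adjusted p = 5.66e-05 and 4.42e-07).

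All role groups but 1 took part. UtpA and UtpC rose complete (6 of 6 and 2 of 2), as did the box C/D core (3 of 3), the exosome (7 of 7) and RRP12 with DBP2, while UtpB gave 4 of 5, other 40S assembly 12 of 16 and 60S assembly 10 of 15. The single H/ACA member, NOP10, read 9.98, 10.13 and 9.97 at maximum CO2, against 10.006, 8.372 and 9.998 at minimum CO2, so that only replicate 2 differed and the change of 0.57 ± 0.25 did not pass (limma, adjusted p = 0.0556). All 7 exosome genes rose, by 0.56 (RRP6) to 0.98 (RRP40) with a median of 0.91, against a median of 1.20 over the other 50 members, 12 of which changed by less than RRP40. The difference between these sets was not tested. NOP19, a 40S assembly factor, read 6.94, 6.86 and 6.85 at maximum CO2, against 7.11, 6.16 and 7.36 at minimum CO2 (0.01 ± 0.22), with the maximum arrays inside the minimum range.

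The minimum CO2 group was uneven in these genes. Replicate 2 was the lowest of the 3 arrays in 54 members, by a median of -1.32 against the mean of the other two, and 43 members were more than 1 unit lower in it. UTP23 and NOP58 had the largest gaps (-2.19 and -2.11), while RRP43 (-0.06), UTP22 (-0.02) and RRP7 (0.17) had almost none. The low HAC1 level stood in replicates 1 and 3 (6.35 and 6.45, against 9.39 in replicate 2), and its part in this split was not tested. Without replicate 2, 36 members rose with a median of 0.77, where 27.0% of all genes rose. Without the 5 arrays of low HAC1, a removal decided on with the data in view and one that keeps only replicate 2 at minimum CO2, 57 rose with a median of 2.02, where 37.0% of all genes rose. With 1 array left in that group, its spread is taken from the other groups.

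Against the C-limited reference, opi1Δ at maximum CO2 had 34 members that rose and 0 that fell, with a median log2 fold change of 0.92, while 17.5% of all genes rose and 13.7% fell (median 0.08). The arrays did not overlap for any of the 57 members, all higher, a separation found for 44.2% of all genes in that direction and 73.2% in either. On the 6 arrays alone limma called 57 members higher, where 36.1% of all genes were, and the methods' t-test 54, where 26.1% were. This comparison shares its maximum CO2 arrays with the one above.

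DBP2 again stood first, at 9.98, 9.84 and 9.97 in opi1Δ at maximum CO2, against 8.18, 8.16 and 8.17 in the reference. Replicates of each group lay close together, and the groups were far apart. The rise was 1.76 ± 0.39 (SE, limma, adjusted p = 0.000767), or 3.39-fold.

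NOP13 read 9.16, 9.18 and 9.03, against 7.47, 7.47 and 7.67 in the reference, a rise of 1.58 ± 0.30 (SE, limma, adjusted p = 0.000121). NOP1 read 10.74, 10.63 and 10.67, against 9.32, 9.22 and 9.43 in the reference, a rise of 1.35 ± 0.32 (SE, limma, adjusted p = 0.00123). NOP7, which acts with Erb1 and Ytm1 on early 60S particles, read 9.16, 9.11 and 9.09, against 7.89, 7.73 and 7.86 in the reference, a rise of 1.29 ± 0.27 (SE, limma, adjusted p = 0.000318). All 3 genes were separated from the reference on every array.

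MRT4, NSR1 and NOP58 did not pass, although their arrays did not overlap either. NSR1 read 10.35, 10.19 and 10.47 at maximum CO2, against 9.37, 9.34 and 9.42 in the reference (0.96 ± 0.46, limma, adjusted p = 0.0972), and MRT4 differed by 1.0 ± 0.33 (adjusted p = 0.016). The spread that limma used for these genes comes from all 11 groups, including the uneven ones. By role 2 of 6 UtpA, 3 of 5 UtpB, 2 of 2 UtpC, 2 of 3 box C/D, 11 of 16 other 40S, 6 of 15 60S and 6 of 7 exosome genes rose. Among the other assembly genes 62 of 85 rose, with DBP3 (1.35 ± 0.30), ALB1 (1.34 ± 0.24), HAS1 (1.33 ± 0.22) and GAR1 (1.32 ± 0.25) in front.

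At minimum CO2 production the opi1Δ members lay near the reference or below it. Against the C-limited reference 0 members rose and 3 fell (median -0.23), while 3.25% of all genes rose and 4.48% fell. The share of members that fell was near that of all genes. With no adjustment 13 members had p below 0.05, a smaller share than the 37.7% of all genes. On the 6 arrays alone limma called 1 member lower, where 0.863% of all genes were, and the methods' t-test called none in either direction, where 0.239% of all genes were lower.

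NOP1 fell most, with 7.82, 7.77 and 8.07 in opi1Δ at minimum CO2, against 9.32, 9.22 and 9.43 in the reference, so that all its arrays were below the reference (-1.44 ± 0.32, limma, adjusted p = 0.00339). UTP30, a processome protein related to ribosomal protein L1, read 6.10, 5.47 and 6.12, against 6.55, 6.51 and 6.63 in the reference, and fell by 0.67 ± 0.17 (limma, adjusted p = 0.00816). RRP7, of UtpC, read 6.85, 6.98 and 6.78, against 7.47, 7.40 and 7.59 in the reference, and fell by 0.62 ± 0.13 (limma, adjusted p = 0.00255). In RRP7 and NOP1 all 3 arrays were low alike, whereas UTP30 was lowest on replicate 2.

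DBP2 and NSR1 were also below the reference on every minimum CO2 array, by -1.43 ± 0.39 and -1.51 ± 0.46, and did not pass (limma, adjusted p = 0.0136 and 0.0243). The sign of the member median changed with the arrays of this group. Without replicate 2 it was 0.19, and 4 members rose (NOP10, NOP19, NOP6 and RRP14) and 2 fell (NOP1 and RRP7), smaller shares than the 13.2% of all genes that rose and the 10.9% that fell. Without the arrays of low HAC1 it was -1.10, and 51 of 57 fell, where 23.5% of all genes did. That fit rests on replicate 2 alone, whose spread is taken from the other groups. NOP1 and RRP7 fell in each of these 3 fits. Leaving out reference replicate 1, 2 or 3 instead left 0, 1 and 0 members that fell, where 1.58%, 1.98% and 1.67% of all genes did.

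The C-limited arrays labelled ino4Δ had lower levels of many members. Against the reference 27 of 57 fell and 0 rose (median -0.91), while 6.74% of all genes fell and 6.64% rose and the median of all genes was 0.05. The arrays did not overlap for 49 members, all lower in ino4Δ, as for 18.0% of all genes in that direction. Limma on these 6 arrays alone and the methods' t-test called 0 members, where 1.27% and 0.220% of all genes were lower. Of the other assembly genes 48 of 85 fell, led by NOG2 (-1.73 ± 0.36), CIC1 (-1.58 ± 0.32), PUF6 (-1.45 ± 0.35) and RCL1 (-1.44 ± 0.24), whereas only 3 of 122 ribosomal protein genes fell.

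The fall was carried by ino4Δ replicates 1 and 2. NSR1 read 5.88, 5.97 and 8.59 in ino4Δ, against 9.37, 9.34 and 9.42 in the reference. The first and second arrays were more than 3 units below the reference and the third was less than 1 unit below it. The log2 fold change was -2.56 ± 0.46 (SE, limma, adjusted p = 0.000462), and without replicate 3 it was -3.45.

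MRT4 had signals of 6.21, 6.39 and 8.17 in ino4Δ and 8.74, 8.86 and 8.89 in the reference, a fall of 1.90 ± 0.33 (SE, limma, adjusted p = 0.000334). DBP2 had 5.75, 5.72 and 7.47 in ino4Δ and 8.18, 8.16 and 8.17 in the reference, a fall of 1.86 ± 0.39 (SE, limma, adjusted p = 0.00159). NOP4, an RNA-binding factor of 60S assembly, had 6.24, 6.20 and 7.64 in ino4Δ and 8.45, 8.24 and 8.33 in the reference, a fall of 1.65 ± 0.35 (SE, limma, adjusted p = 0.00191). In each of these genes replicate 3 lay between the low arrays and the reference, and the groups did not overlap.

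UtpA and UtpB were lowered almost whole, with 5 of 6 and 4 of 5 members. UTP9 read 5.70, 5.75 and 7.04 in ino4Δ, against 7.67, 7.65 and 7.75 in the reference (-1.53 ± 0.33), UTP4 read 5.35, 5.52 and 6.77, against 7.40, 7.29 and 7.28 (-1.44 ± 0.27), and DIP2 read 5.79, 5.63 and 7.09, against 7.39, 7.36 and 7.42 (-1.22 ± 0.22). These 3 passed (limma, adjusted p between 0.00048 and 0.00198), and UTP4 was below the array background of 5.47 on replicate 1, where the array bounds its level only from above. Further, 1 of 2 UtpC, 2 of 3 box C/D, 5 of 16 other 40S, 8 of 15 60S genes and both RRP12 and DBP2 fell.

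None of the 7 exosome genes fell in ino4Δ, and their median was -0.30. RRP45 read 7.50, 7.48 and 7.33, against 7.30, 7.24 and 7.33 in the reference, and was the single member with a fold change above 0 (0.15 ± 0.12, limma, adjusted p = 0.412). RRP40, a cap subunit of the ring, read 7.03, 7.07 and 7.57, against 7.67, 7.55 and 7.74, so that replicate 3 lay inside the reference range (-0.43 ± 0.14, limma, adjusted p = 0.0298). Without ino4Δ replicate 3, RRP4, RRP40, RRP46 and RRP6 fell too, in a fit where 12.1% of all genes fell.

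**Figure D3:**
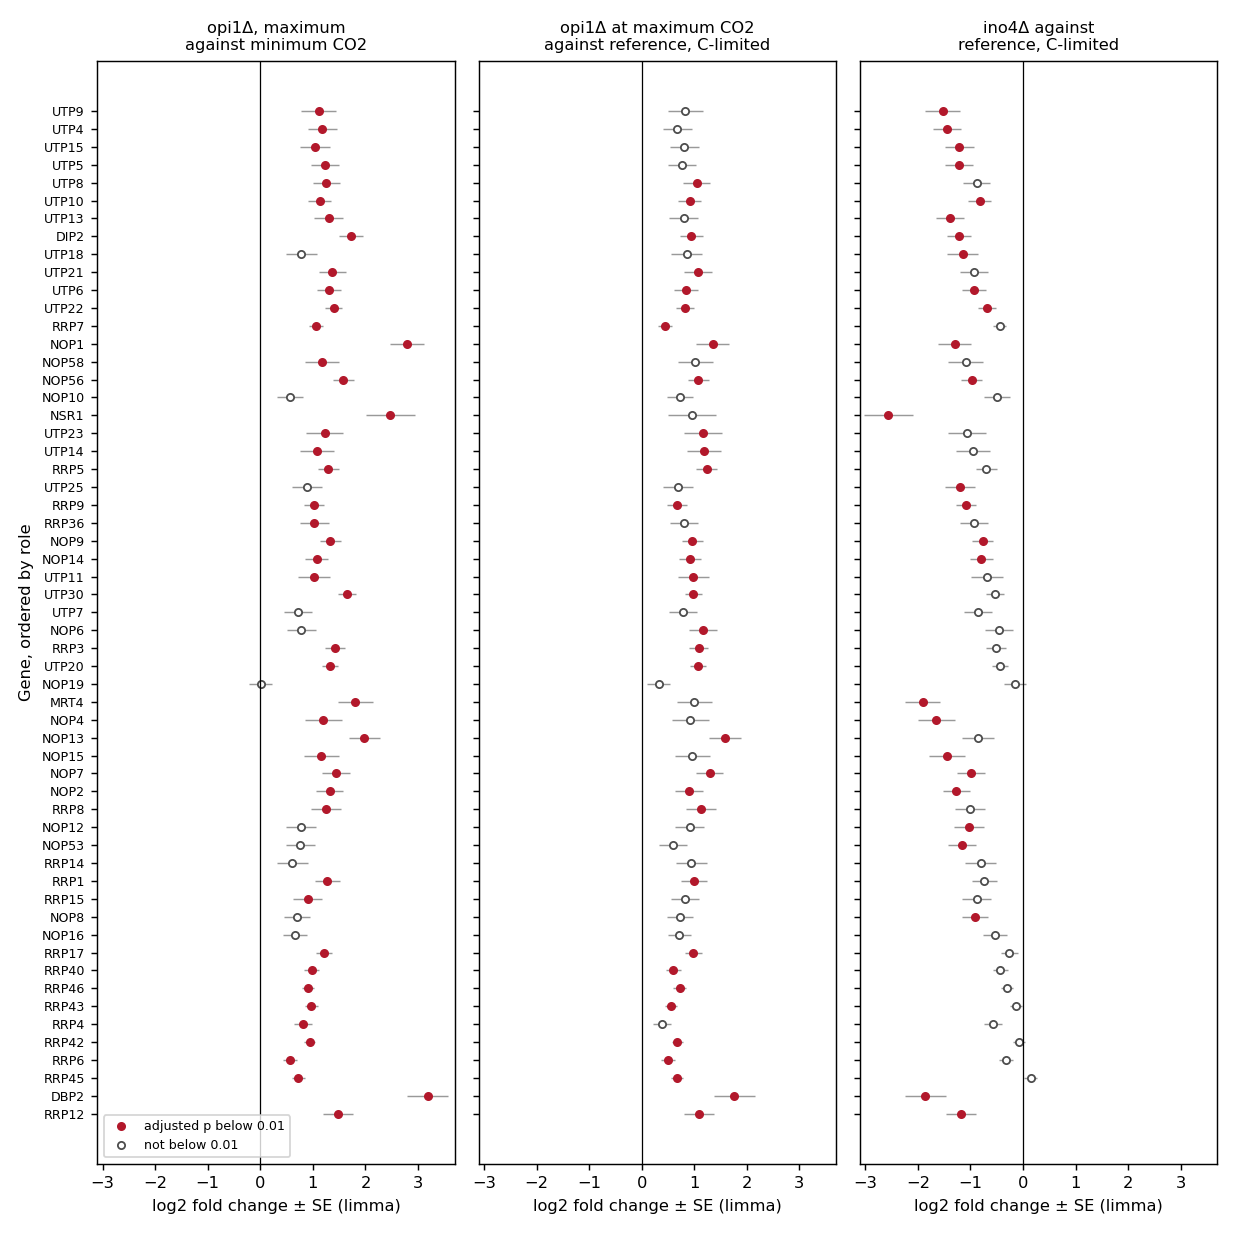
Log2 fold change ± SE from limma (horizontal axis) of each of the 57 members, ordered by role from top to bottom, for opi1Δ at maximum against minimum CO2 (left), opi1Δ at maximum CO2 against the C-limited reference (middle) and ino4Δ against the C-limited reference (right). Filled points have an adjusted p below 0.01 (46, 34 and 27 members); points on the left and in the middle all lie above 0, and those on the right lie below 0 except RRP45.

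Replicate 3 of ino4Δ was the highest of its group in 55 of 57 members, by a median of 0.90, and by more than 1 unit in 25. The gap was widest for NSR1 (2.67), MRT4 (1.87) and DBP2 (1.73) and ran the other way for RRP45 (-0.16). This is the array whose INO2 level fits another label. Without it 46 members fell with a median of -1.25, where 12.1% of all genes fell, and without all 4 arrays of mismatched INO levels 45 fell, where 12.4% did; both choices keep ino4Δ replicates 1 and 2 only. Leaving out ino4Δ replicate 1 or 2 instead left 4 and 3 members that fell, where 1.78% and 1.71% of all genes did, and leaving out any 1 of the 3 reference arrays left 12, where 3.47% to 3.93% did.

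The other INO deletions under C-limitation gave no member that passed. In ino2Δino4Δ against the reference 0 members rose and 0 fell (median -0.19), while 0.0734% of all genes rose and 0.496% fell, and in ino2Δ against the reference 0 rose and 0 fell (median -0.15), while 0.0918% of all genes rose and 0.734% fell. No member had an unadjusted p below 0.05 in limma in either comparison, where 12.3% of all genes had one in ino2Δino4Δ and 14.5% in ino2Δ, and the methods' t-test called none. Without the 4 arrays of mismatched INO levels 0 members rose or fell in ino2Δino4Δ as well (2 arrays, median -0.26). In that fit 2.57% of all genes rose and 1.85% fell. For ino2Δ the removal leaves 1 array, its spread taken from the other groups, and the median was -0.02. NSR1 read 9.41, 8.57 and 8.44 in ino2Δino4Δ and 9.35, 8.70 and 8.64 in ino2Δ, against 9.37, 9.34 and 9.42 in the reference. In both mutants replicate 1 was at the reference level and the others were lower, and DBP2 was split in the same way (8.29, 7.47 and 7.42 in ino2Δino4Δ, 8.21, 7.47 and 7.48 in ino2Δ). The arrays at the reference level are those in which INO4 was also high.

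Set directly against ino2Δ under C-limitation, ino4Δ had 1 member that fell and 0 that rose (median -0.79), while 0.0184% of all genes fell and 0.0734% rose. With no adjustment 50 members had p below 0.05, as did 22.8% of all genes. The 1 member was DIP2, at 5.79, 5.63 and 7.09 in ino4Δ, against 7.39, 7.40 and 7.43 in ino2Δ, with no overlap (-1.23 ± 0.22, limma, adjusted p = 0.0093), and it passed neither in limma on the 6 arrays alone nor in the methods' t-test. It was the only gene that fell among all 5449. Without ino4Δ replicate 3 there were 41 members that fell, where 8.06% of all genes did, and without the 4 arrays of mismatched INO levels, which leaves 1 ino2Δ array, 21, where 6.29% of all genes fell. Without ino4Δ replicate 1 or 2, or without ino2Δ replicate 2 or 3, 0 members fell, where 0.00% of all genes did. The C-limited comparisons share the reference arrays, or here the ino4Δ arrays, so that agreement between them is no separate evidence.

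In the reference strain the limitation itself changed few members. N-limited against C-limited cultures had 3 members that fell and 0 that rose (median -0.19), while 8.61% of all genes fell and 14.7% rose. The share of members that fell was below that of all genes. On the 6 arrays alone limma called 5 members lower, where 6.39% of all genes were, and the methods' t-test 1, where 4.28% were. Of the other assembly genes 5 of 85 fell, among them RRB1 (-0.81 ± 0.24), ESF1 (-0.79 ± 0.20), IMP4 (-0.78 ± 0.23) and LOC1 (-0.69 ± 0.18).

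NSR1 fell most, with 6.86, 7.77 and 7.80 under N-limitation, against 9.37, 9.34 and 9.42 under C-limitation (-1.90 ± 0.46, limma, adjusted p = 0.00238). NOP1 read 7.15, 8.55 and 8.71 under N-limitation, against 9.32, 9.22 and 9.43 under C-limitation (-1.19 ± 0.32, limma, adjusted p = 0.00479). RRP7 read 6.51, 7.17 and 7.15, against 7.47, 7.40 and 7.59 (-0.54 ± 0.13, limma, adjusted p = 0.00215). In all 3 genes the N-limited arrays lay below the C-limited ones, and replicate 1, the array of low HAC1, was the lowest.

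Without the 5 arrays of low HAC1, NSR1 (-1.59, limma, adjusted p = 0.0114) and RRP7 (-0.33, limma, adjusted p = 0.0154) no longer passed. In that fit NOP1 (-0.70, limma, adjusted p = 0.00792), NOP13 and NOP56 fell, where 10.6% of all genes did. RRP45 was the only member that rose, a smaller share than the 23.9% of all genes that rose. Leaving out the N-limited replicate 1 alone left 0 members that fell, where 6.40% of all genes did, and leaving out the C-limited replicate 3 left 1, where 6.59% did. In the N-limited reference replicate 1 the members did not move one way: 36 were above and 21 below the mean of replicates 2 and 3. NOP1 (-1.47), DBP2 (-1.17) and NSR1 (-0.93) were lowest and NOP6 (0.79), UTP11 (0.71) and NOP4 (0.68) highest.

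Under N-limitation none of the deletions changed a member past the threshold. In opi1Δ 0 members rose and 0 fell (median -0.13), while 1.87% of all genes rose and 0.661% fell, and no member had an unadjusted p below 0.05 in limma, as 16.0% of all genes had. In ino4Δ 0 rose and 0 fell (median -0.07), while 0.0734% of all genes rose and 0.477% fell, with 4 members and 12.8% of all genes at an unadjusted p below 0.05. In ino2Δ 0 rose and 0 fell (median -0.05), while 0.0918% of all genes rose and 0.514% fell, with no member and 11.8% of all genes at an unadjusted p below 0.05.

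The double deletion, in which 8.06% of all genes rose and 8.09% fell under N-limitation, gave 0 members in either direction as well. Their median log2 fold change was 0.29, and 0.16 without the 5 arrays of low HAC1, which leaves 1 array of the double deletion. In limma 7 members had an unadjusted p below 0.05, a smaller share than the 36.2% of all genes. NOP7 read 8.19, 7.90 and 8.20 in ino2Δino4Δ, against 7.71, 7.46 and 7.12 in the reference, with no overlap (0.67 ± 0.27, limma, adjusted p = 0.0652). NOP1 read 7.47, 8.77 and 7.35, against 7.15, 8.55 and 8.71, with both groups split by the arrays of low HAC1. The methods' t-test called no member in any of the 4 N-limited comparisons with the reference. Among the other assembly genes ESF1 rose in ino2Δino4Δ (0.86 ± 0.20, limma, adjusted p = 0.00176).

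**Figure D4:**
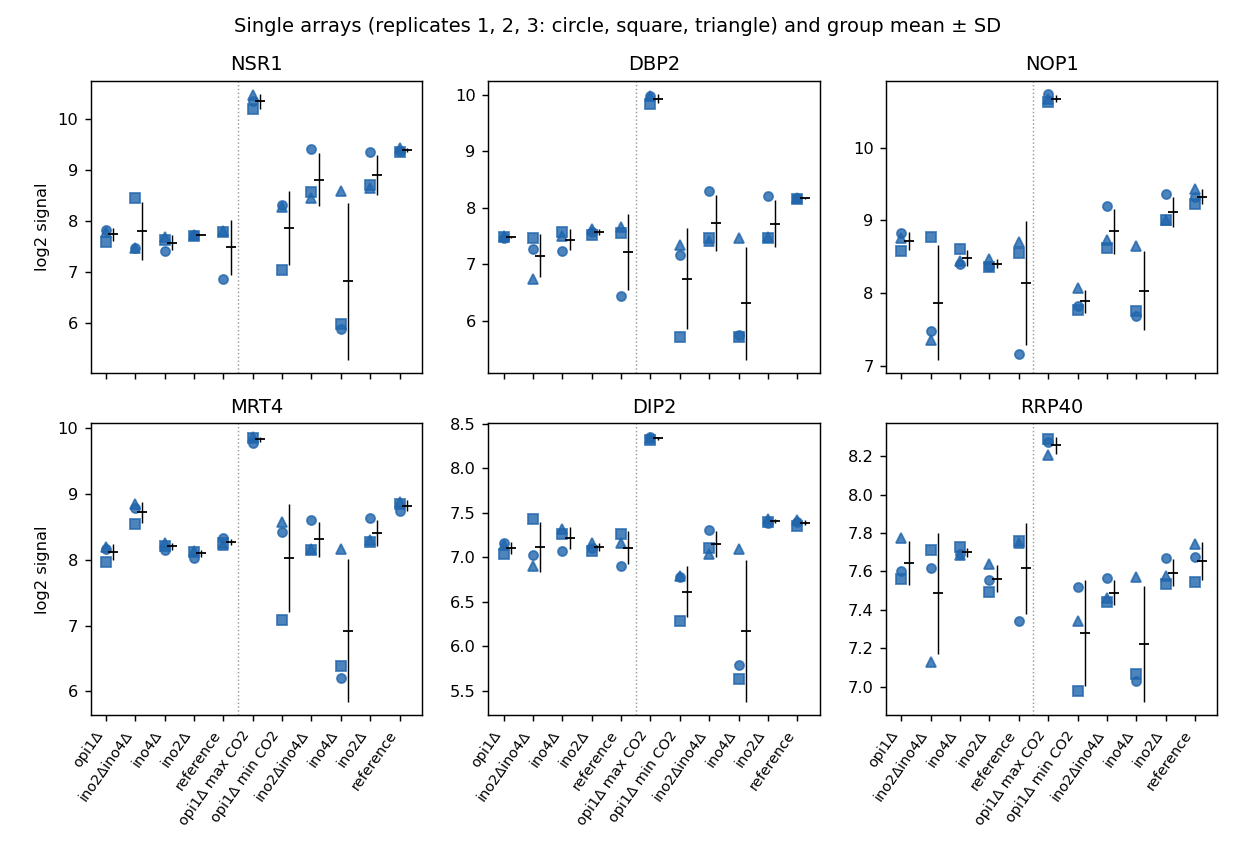
Log2 signal (vertical axes, each with its own range) of NSR1, DBP2, NOP1, MRT4, DIP2 and RRP40 on single arrays, with the group mean ± SD (n = 3) as a bar beside the points; N-limited groups are left and C-limited groups right of the dotted line. In all 6 genes opi1Δ at maximum CO2 is highest; C-limited ino4Δ replicate 3 lies above replicates 1 and 2, and the N-limited reference replicate 1 lies below replicates 2 and 3 in all but MRT4.

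The effect of deleting INO4 was then compared between the limitations, as the N-limited minus the C-limited log2 fold change. For 1 member the difference was higher under N-limitation and for 0 it was lower (median 0.78), while 1.25% of all genes were higher and 2.18% lower. With no adjustment 36 members had p below 0.05, as did 31.3% of all genes. The member was DIP2, which read 7.08, 7.26 and 7.31 in N-limited ino4Δ, against 6.90, 7.26 and 7.16 in its reference, and so differed from the C-limited fall by 1.32 ± 0.31 (limma, adjusted p = 0.00901). NSR1 (2.66 ± 0.66), DBP2 (2.08 ± 0.56) and MRT4 (1.84 ± 0.47) had larger differences that did not pass (limma, adjusted p = 0.011, 0.0159 and 0.0133). Leaving out any 1 array of the 4 groups other than C-limited ino4Δ replicate 3 gave a DIP2 difference between 1.06 and 1.40 that did not pass. Without C-limited ino4Δ replicate 3 the ino4Δ difference passed in 30 members, where 7.34% of all genes were higher. DIP2 also did not pass in limma on the 4 groups alone (adjusted p = 0.073), with a replicate block (limma, adjusted p = 0.0101) or in the methods' t-test. Of the 85 other assembly genes 7 were higher and 0 lower, among them CIC1 (1.900 ± 0.454), IMP4 (1.605 ± 0.319), DBP9 (1.456 ± 0.341) and PNO1 (1.451 ± 0.347).

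For the double deletion the same difference passed in 0 members (median 0.39), while 3.23% of all genes were higher and 4.37% lower, with 7 members and 28.0% of all genes at an unadjusted p below 0.05 in limma and no member called by the methods' t-test. Without the 4 arrays of mismatched INO levels it again passed in 0 members (median 0.46), while 5.01% of all genes were higher and 6.13% lower.

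The members followed each other closely, as a description over the 33 arrays, which include replicates of the same groups. Pearson's r of a gene with the mean of the other members had a median of 0.93 and was above 0.9 in 36 of 57 and above 0.8 in 48. RRP12 (0.99) and UTP6 (0.98) were among the highest, and RRP45 (0.43), NOP19 (0.46) and RRP43 (0.63) were the lowest. NOP1, in spite of its wide range, reached 0.68. On the 5 arrays of low HAC1 it was below the others under the same limitation, apart from C-limited ino4Δ replicates 1 and 2 and opi1Δ at minimum CO2 replicate 2, which were as low.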

How the data were processed

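RNA was measured on 33 Affymetrix Yeast Genome 2.0 arrays. Normalisation was done by the authors with PLIER (version not given in the sources used here), and 1 log2 value per probe set was deposited and used as it is. Of 10928 probe sets, 5498 were paired with 1 S. cerevisiae gene in the platform annotation (12 symbols updated through identifiers). Where several probe sets matched (47 genes) the brightest was kept, which left 5449 genes. The 1746 annotated probe sets that matched no S. cerevisiae gene by identifier or symbol gave the background (95th percentile, 5.47). Their species was not checked. No filter on low values was applied.

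One coefficient per group was fitted with limma 3.58.1 in R 4.3.3 (lmFit, eBayes, 22 residual degrees of freedom), called below 0.01 after Benjamini-Hochberg adjustment, as in the study's methods, and tested on simulated data. Precision rests on 3 arrays per group. Tables and figures used Python 3.11.15, numpy 2.4.6, pandas 2.3.3 and matplotlib 3.10.9. The alternatives were centring, quantile normalisation, a fit to the compared groups only, the methods' t-test (Student, with Benjamini-Hochberg adjustment), removal of genes below background, a replicate block, and leaving out single arrays. The removal of the arrays of low HAC1 or of mismatched INO levels was added after the data were seen. Members and lists were chosen with earlier results of these data known, so that the rank of the singly named DBP2, NSR1, MRT4 and DIP2 among the members is a description. The named genes are up to 4 called members per direction and comparison with the largest change and no overlap, DBP2, NSR1, MRT4, DIP2, the box C/D core, the 3 widest, 3 narrowest and 3 least correlated members, and, outside them, the 10 genes most like the members and up to 4 other assembly genes per direction; other genes were chosen after their values were seen.

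The replicate numbers in the labels were not used to pair the samples, and the labels do not say whether they mark pairs. In no comparison did all 3 same-numbered pairs have a correlation of deviations above 0.1. For N-limited ino2Δino4Δ and its reference the values were 0.49, 0.69 and -0.76. Deviations from means of 3 arrays cannot exclude a pairing. Maximum and minimum CO2 samples of opi1Δ may come from the same cultures, which was not tested.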

Additional observations from a re-analysis of the deposited data

Results flagged for a closer look

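In the main fit DIP2, the UtpB subunit of the small subunit processome, was the only member whose response to the deletion of INO4 differed between the limitations by a test of that difference. Of the 85 other assembly genes 7 passed the same test, all higher, where 1.25% of all genes were higher. A difference past the threshold was thus not particular to DIP2 among assembly genes. The N-limited minus C-limited effect was 1.32 ± 0.31 (log2, limma, adjusted p = 0.00901), with DIP2 at 5.79, 5.63 and 7.09 in C-limited ino4Δ, against 7.39, 7.36 and 7.42 in its reference, and at 7.08, 7.26 and 7.31 in N-limited ino4Δ, against 6.90, 7.26 and 7.16 in its reference. Without C-limited ino4Δ replicate 3, the array of mismatched INO2 level, the DIP2 difference was 1.79. In that fit 30 members passed, where 7.34% of all genes were higher, so that DIP2 was not alone among the members. The DIP2 difference was 1.13 and 1.06 without replicates 1 and 2 (limma, adjusted p = 0.0408 and 0.0398). Apart from replicate 3, it did not pass when any other single array of the 4 groups was left out. Without N-limited reference replicate 2 or 3, 1 and 3 members other than DIP2 passed, where 0.789% and 1.36% of all genes were higher.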

How the results depend on the processing

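With 3 arrays per group, both the arrays entered and the arrays that give the spread moved many counts, among them those of the uneven groups opi1Δ at minimum CO2 and C-limited ino4Δ. The main counts of members past the threshold were 46 for opi1Δ at maximum against minimum CO2, 34 and 3 for maximum and minimum CO2 against the C-limited reference, 27 and 1 for C-limited ino4Δ against the reference and against ino2Δ, 3 for the N-limited against the C-limited reference, 1 and 0 for the difference of the ino4Δ and the ino2Δino4Δ effect between the limitations, and 0 elsewhere. A fit to the compared groups alone gave 15, 57, 1, 0, 0, 5, 0 and 1 for these 8 results in the same order. For the last of them 2.66% of all genes were higher. In that order the methods' t-test gave 5, 54, 0, 0, 0, 1, 0 and 0. These fits use fewer arrays for the spread. For the ino4Δ difference between the limitations, centring gave 5, where 1.98% of all genes were higher, and quantile normalisation 3, where 1.78% were. The cause was not tested. With a replicate block the counts were 0 for ino4Δ against ino2Δ and 0 for the ino4Δ difference, and the block moved no other count of calls by over 1.5 times. For maximum against minimum CO2 the block gave 48 members, where 28.9% of all genes rose. Whether samples of the same number are paired is not stated. In the alternatives chosen after seeing the data, some of which leave 1 array in a group and take its spread from the others, removal of the arrays of low HAC1 gave 51 for minimum CO2 against the reference, 20 for the ino4Δ difference and 2 for the ino2Δino4Δ difference, and removal of the arrays of mismatched INO levels gave 45 for ino4Δ against the reference, 21 against ino2Δ and 27 for the ino4Δ difference. For the ino4Δ difference 4.62% of all genes were higher without the arrays of low HAC1. Without those of mismatched INO levels 7.80% were. Without the arrays of low HAC1 the ino2Δino4Δ difference keeps 1 array of the N-limited double deletion (member median 0.295). No conclusion on the members is drawn from the count of that fit. Leaving out 1 array at a time gave 36 to 55, 24 to 28, 0 to 6, 3 to 46, 0 to 41, 0 to 3, 0 to 30 and 0 to 0 for the same 8 results, 0 to 1 for N-limited ino2Δino4Δ against its reference, and 0 to 0 for the other 5. Without minimum CO2 replicate 2 the direction against the reference reversed, with 6 members past the threshold, 4 of them higher; with 1 array left out at a time the member median ran between -0.49 and 0.19. Among single genes and medians 371 values kept their side of the threshold or moved by less than the spread, 69 lost the call, 17 moved and 1 reversed. C-limited ino2Δ replicates 2 and 3 were the closest pair of replicates, with a median absolute difference of 0.03 (log2) over all genes, and were counted as 2 arrays.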

Other observations

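Outside the members, the genes whose levels were most like the mean of the 57 over the 33 arrays were again mostly ribosome assembly factors. Pearson's r, given as a description, was 0.98 for ARX1, an export factor of the 60S subunit, for TSR1, a late 40S factor, for the helicase genes DRS1 and PRP43 and for PWP2, the UtpB subunit Utp1. ERB1 and BRX1 of 60S assembly followed at 0.98, and BCD1, needed for box C/D snoRNAs, LTV1 and DBP3 at 0.97. Of the 85 other assembly genes 63 had an r above 0.9 (median 0.93), of the 122 ribosomal protein genes 0 (median 0.56), and of all 5392 other genes 133. YMR262W (-0.87), ATG2 (-0.86), which acts in autophagy, and YSC84 (-0.84) ran most against the members.

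Ribosomal protein genes moved with the assembly genes in one contrast and not in another. Between maximum and minimum CO2 production of opi1Δ 96 of 122 rose and 0 fell (median 0.77), where 28.4% of all genes rose, whereas in C-limited ino4Δ 0 rose and 3 fell (median -0.08), against 27 of 57 members and 6.74% of all genes that fell. The ribosomal protein median was 10.830, 10.803 and 10.487 on the ino4Δ arrays, against 10.845, 10.747 and 10.775 in the reference. Only replicate 3, the array of mismatched INO2 level, lay below the reference range. In opi1Δ at minimum CO2 against the reference 18 of 122 ribosomal protein genes fell and 3 of 57 members did, where 4.48% of all genes fell. Here the ribosomal protein median was 10.835, 10.141 and 10.757, so that only replicate 2 lay below the reference range. Whether these counts differ between the lists was not tested.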
